A study of Mus musculus with 16 samples.

Results

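The 8 genes described here encode regulators of the facial mesenchyme: the homeodomain factors Msx1, Msx2, Prrx1, Prrx2 and Six2, the paired-domain factor Pax9, the coactivator Eya1, a partner of Six2 and its relatives, and the nuclear protein Mab21l2. They were taken by name from the 30286 gene symbols of the authors' deposited TPM table, where each has 1 row. TPM is a measure of RNA level corrected for transcript length and sequencing depth. RNA was taken from C57BL/6 mouse embryos at embryonic day 12, from the facial prominences, whose surface ectoderm and mesenchyme had been parted surgically. The 4 groups were KO mesenchyme, WT mesenchyme, KO ectoderm and WT ectoderm, where KO embryos are Esrp1-/- and WT embryos are wild-type. The Esrp1 protein binds RNA and sets splicing choices in epithelia. The labels name no treatment and leave out how the Esrp1 allele was made. Each group had 4 libraries of 6 to 7 pooled embryos, 16 libraries in all, and the table gives 1 value per group. No difference below therefore has a replicate check, an error or a p-value, and "higher" and "lower" describe the deposited values.

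Msx1 and Msx2 are repressors induced by Bmp signals. They act in the dental and palatal mesenchyme and at the margins where epithelium and mesenchyme exchange signals, and loss of Msx1 in mice gives cleft palate and arrested teeth. Pax9 works with Msx1 in the tooth and palate mesenchyme, where both maintain Bmp4. Prrx1 and Prrx2 are partly redundant factors of limb and craniofacial mesenchyme. Six2 binds DNA, and Eya1 has no DNA-binding domain and is recruited by Six2 and related factors as a coactivator. Both also act in sensory placodes or in the nephron progenitors of the kidney. Mab21l2 is needed for eye and body wall development in mice.

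Upstream sequences are shown for 3 of the 8 genes, 1 each of the Msx, Prrx and Six2 types, which stand for the moderate and the sharply mesenchymal patterns described below. They come from RefSeq on GRCm38.p6, in the gene's direction, and each is the window of 250 bases before the RefSeq transcript start less any base in an exon annotated by GENCODE M21. Capitals mark matches, on either strand, to TAATTA, a core shared by many homeodomain sites, or to CCAAT, the core of the CCAAT box. The stretches are chr5:37824586-37824835 for Msx1, chr1:163313711-163313900 for Prrx1 and chr17:85688275-85688504 for Six2, all on the minus strand.
Msx1: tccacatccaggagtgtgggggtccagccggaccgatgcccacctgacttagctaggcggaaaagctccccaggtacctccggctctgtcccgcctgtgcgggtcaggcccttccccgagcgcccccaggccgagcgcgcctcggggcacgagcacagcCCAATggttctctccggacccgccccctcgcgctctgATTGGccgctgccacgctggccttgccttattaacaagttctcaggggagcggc
Prrx1: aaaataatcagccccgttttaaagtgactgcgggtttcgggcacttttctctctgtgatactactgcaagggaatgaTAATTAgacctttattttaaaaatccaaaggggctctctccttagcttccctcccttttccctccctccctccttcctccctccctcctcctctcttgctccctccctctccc
Six2: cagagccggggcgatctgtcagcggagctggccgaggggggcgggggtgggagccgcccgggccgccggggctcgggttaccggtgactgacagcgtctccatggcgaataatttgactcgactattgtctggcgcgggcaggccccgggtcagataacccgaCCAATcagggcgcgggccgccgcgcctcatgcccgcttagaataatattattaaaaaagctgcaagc

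RefSeq windows were matched for 7 of the 8 genes, all but Eya1. The windows of Msx2, Prrx2 and Mab21l2 lie wholly inside exons that GENCODE M21 gives these genes (250 of 250 bases), so the annotations place the starts differently. The window of Pax9 (56695221 to 56695470) has 0 bases in exons but lies inside the GENCODE span of the gene, which begins at 56691767. Over the whole windows, TAATTA was found in those of Msx2 and Prrx1, and in 4.84% of all 32851 windows. CCAAT was found in those of Msx1, Msx2, Six2 and Mab21l2 (33.85% of all windows), and TATAA in those of Msx2 and Mab21l2 (22.78%). In Msx2, TATAA overlaps its own match on the other strand. None of the 7 windows held CAATTA, a site bound by Msx proteins (7.17% of all windows), CTTTGA, a form of the Tcf/Lef site (13.83%), or ACCACCC, the core of the Gli site (3.92%). The paralogs differed in base composition: the window of Msx1 had a GC content of 68.0% and that of Msx2 of 61.6%, while that of Prrx1 had 47.6% and that of Prrx2 70.0%, against a median of 52.4% over all windows. These matches describe letters in the windows and no binding was measured.

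By GENCODE M21 on GRCm38, Msx1 lies on chromosome 5 (37820485 to 37824583), Msx2 on chromosome 13 (53466884 to 53473074), Prrx1 on chromosome 1 (163245119 to 163313710), Prrx2 on chromosome 2 (30834972 to 30881251), Pax9 on chromosome 12 (56691767 to 56712822), Mab21l2 on chromosome 3 (86545581 to 86548629), Six2 on chromosome 17 (85684277 to 85688274) and Eya1 on chromosome 1 (14168954 to 14310235). All 8 are protein-coding. Mab21l2 lies inside Lrba, which is on the opposite strand, and whether reads were assigned by strand is not given in the sources used here. Lrba was at 26.1 TPM in KO mesenchyme and 27.95 TPM in WT mesenchyme, and at 17.9 TPM in KO ectoderm and 16.2 TPM in WT ectoderm. Pax9 overlaps the end of Slc25a21 on the opposite strand, which was at 1.19 TPM in KO mesenchyme and 0.82 in WT mesenchyme and below 1 TPM in ectoderm. Non-coding genes overlap Pax9, Prrx1 and Eya1 as well, for Prrx1 and Eya1 on the same strand too, where use of strand would not part the reads. The overlaps are those of whole gene spans, and whether any reads are shared was not examined. Any shared reads of opposite-strand partners could not be told apart if strand was not used.

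The layers were distinct by their markers. The 24 ectoderm markers, led by Krt5, Krt14 and Krt15, summed to 52.8 TPM in KO mesenchyme, 59.7 in WT mesenchyme, 3889 in KO ectoderm and 4337 in WT ectoderm. The 20 mesenchyme markers, led by Vim, Col3a1 and Fn1, summed to 3259, 4616, 1232 and 789 TPM in the same order, and none was at 0 in any group. Esrp1 itself was at 62.9 TPM in KO ectoderm and 170.02 TPM in WT ectoderm, and near 1 TPM in both mesenchyme groups, so that 37.0% of the WT level was listed in KO ectoderm. Libraries with 2 index barcodes in the labels numbered 2 in KO mesenchyme, 0 in WT mesenchyme, 2 in KO ectoderm and 1 in WT ectoderm. With 1 value per group, the kind of index and the genotype cannot be told apart.

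In the mesenchyme the Prrx factors and Msx1 had the highest levels of the 8 genes, and Msx2 the lowest. Prrx1 was at 254 TPM in KO mesenchyme and 293 TPM in WT mesenchyme, a level exceeded by 477 and 427 genes of the whole table. Prrx2 followed at 182 TPM in KO and 205 in WT, then Msx1 at 139 and 193. Among these 8 genes and 36 other factors of facial mesenchyme, Prrx1, Prrx2 and Msx1 held ranks 1, 2 and 3 in both mesenchyme groups. Mab21l2 was at 76.8 TPM in KO and 158 in WT mesenchyme, rank 7 and rank 5 of the 44. Six2 (54.96 TPM in KO, 78.15 in WT), Eya1 (41.5 and 45.1), Pax9 (22.9 and 31.9) and Msx2 (19.2 and 16.8) completed the order. This order of the 8 was the same in KO and WT mesenchyme. Without values per library, it cannot be said which neighbours in it differ beyond their spread.

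The order in ectoderm was another. Msx1 was highest there too, at 106 TPM in KO and 74.5 in WT ectoderm, and Msx2 was second at 47.3 and 45.3 TPM. Six2 came next at 42.3 and 17.6 TPM. Prrx1 was at 40.4 TPM in KO ectoderm, the fourth highest, and at 9.22 TPM in WT ectoderm, the second lowest. Eya1 was at 28.9 and 15.1 TPM, Prrx2 at 21.9 and 9.42, Mab21l2 at 17.7 and 3.24, and Pax9 at 14.5 and 11.5. All 8 genes were above 1 TPM in every group. Summed over the 8, the level was 790.5 TPM in KO mesenchyme, 1021 in WT mesenchyme, 319 in KO ectoderm and 186 in WT ectoderm.

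**Figure D1:**
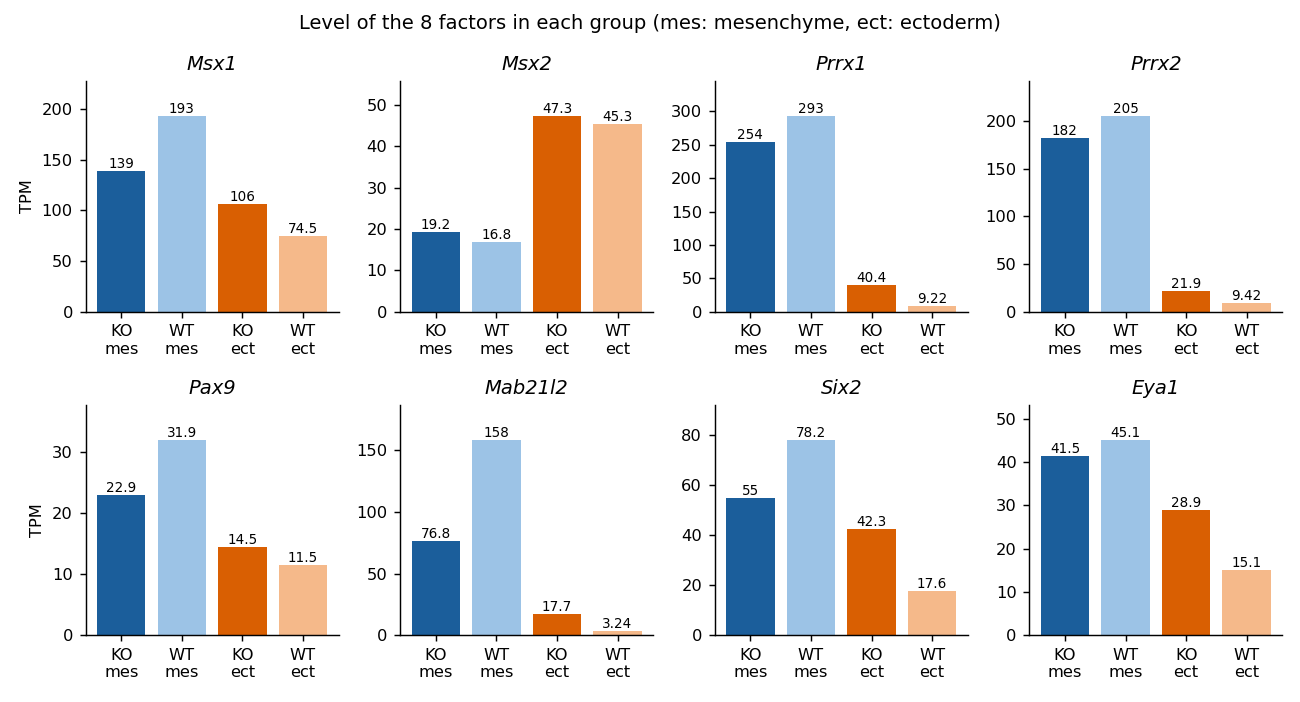
TPM of each of the 8 genes (1 panel per gene, each with its own vertical scale from 0) in KO mesenchyme, WT mesenchyme, KO ectoderm and WT ectoderm; each bar is the 1 deposited value of a group. Msx2 is the 1 gene with its higher bars in ectoderm (47.3 and 45.3 TPM), while Prrx1, Prrx2 and Mab21l2 have WT ectoderm bars of 9.22, 9.42 and 3.24 TPM.

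The comparison of the layers asks how far each factor was a mesenchyme gene. Ratios are given on a log2 scale after 1 was added to each TPM, and so come out smaller than the true change where levels are low. In WT embryos 3 genes were sharply enriched in mesenchyme. Mab21l2 had a log2 ratio of mesenchyme over ectoderm of 5.23, and no other of the 14242 genes tested had a higher one. Prrx1 followed at 4.84, with 1 gene higher, and Prrx2 at 4.31, with 24 genes higher. The first place of Mab21l2 depends on the 1 added to each TPM. Without it the endothelial marker Cdh5 was 54.5-fold and Mab21l2 48.9-fold higher in WT mesenchyme. Folds without the 1 were read only for genes of the lists used below, at 1 TPM or more in WT ectoderm, so other genes may lie higher. With 5 added, Prrx1 (4.39) lay above Mab21l2 (4.31). Genes whose levels in a comparison averaged under 1 TPM were left out of it, and here a gene is called tested when it was kept, since no significance test could be made.

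The next 4 genes had WT ratios of 2.09 (Six2), 1.52 (Eya1), 1.40 (Pax9) and 1.36 (Msx1). These genes had clear levels on both sides, from 11.5 TPM (Pax9) to 74.5 TPM (Msx1) in WT ectoderm. Msx2 was the 1 gene with more RNA in ectoderm, with a ratio of -1.38. At 2-fold or more, 7 of the 8 were higher in WT mesenchyme and 1 lower, against 12.1% and 6.88% of all genes tested. The median ratio of the 8 was 1.80 and that of all genes 0.15. Quantile normalization, which moved the median of all genes by -0.16, gave 9.47% higher and 8.17% lower.

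In KO embryos the ratios between the layers lay closer to 0 for all 8 genes. The share of all genes that did so was not counted, so the 8 cannot be set apart from the whole table in this. In WT embryos 12.1% of all genes were at least 2-fold higher in mesenchyme and 6.88% lower, and the KO shares are given below. Mab21l2 had a ratio of KO mesenchyme over KO ectoderm of 2.06, Prrx1 of 2.62 and Prrx2 of 3.0026. Pax9 (0.63), Eya1 (0.51), Msx1 (0.39) and Six2 (0.37) were then within 2-fold. Msx2 was at -1.26. At 2-fold or more 3 of the 8 were higher in KO mesenchyme and 1 lower, against 6.88% and 9.06% of all genes, and the medians were 0.57 for the 8 and -0.0012 for all genes. The direction of both layer comparisons held for each of the 8 genes under the alternatives tried. After the mesenchyme share described below was taken off KO ectoderm, the KO ratio was nearer to 0 than the WT ratio for 6 genes and farther for Mab21l2 (6.01) and Prrx2 (7.52). In KO ectoderm Mab21l2 was then at 0.21 TPM and Prrx2 at 0 TPM, so the size of both ratios depends on the 1 added to each TPM. Both also depend on the use of WT rather than KO mesenchyme for the share.

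**Figure D2:**
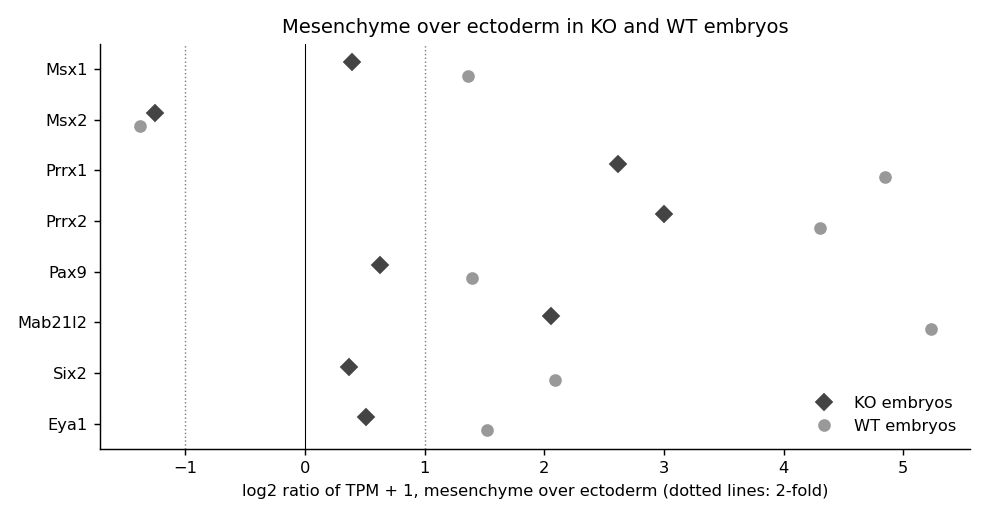
Log2 ratio of TPM plus 1, mesenchyme over ectoderm (horizontal axis), for each gene in KO embryos (diamonds) and WT embryos (circles); dotted lines mark 2-fold. Mab21l2 is at 2.06 in KO and 5.23 in WT embryos, and Msx2 lies left of 0 in both.

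In KO mesenchyme Mab21l2 was the 1 gene of the 8 beyond 1.5-fold. It was at 76.8 TPM in KO and 158 in WT mesenchyme, a log2 ratio of -1.03, and 202 of 14233 genes had a lower one. Six2 (54.96 TPM in KO, 78.15 in WT, -0.50), Msx1 (139 and 193 TPM, -0.47) and Pax9 (22.9 and 31.9 TPM, -0.46) had ratios below 0 and within 1.5-fold. Prrx1 (254 and 293 TPM, -0.21), Prrx2 (182 and 205 TPM, -0.17) and Eya1 (41.5 and 45.1 TPM, -0.12) were nearer to level. Msx2, at 19.2 TPM in KO and 16.8 in WT mesenchyme, was the 1 gene above 0 (0.18).

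The whole table leaned the same way in mesenchyme. At 1.5-fold or more 13.4% of all genes were lower and 2.33% higher, and the median ratio of all genes was -0.12, against -0.33 for the 8. With 1 lower and 0 higher of 8, the share beyond 1.5-fold is close to that of all genes. Centring on the median of all genes moved every ratio up by 0.12, to 590 higher and 1164 lower genes, as against 332 and 1902. Mab21l2 was then at -0.91, Six2 at -0.38, Msx1 at -0.35, Pax9 at -0.34 and Eya1 at 0.0032. Mesenchyme markers moved with these genes: 10 of the 20 were past 1.5-fold lower in KO mesenchyme and none higher (7 and 0 after the GC trend described next), with the summed levels given above, and their part in the values of the 8 genes was not tested.

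The KO over WT ratios in mesenchyme varied with transcript GC content. Prrx2 (63.6% GC in its longest transcript), Six2 (61.2%) and Msx1 (58.2%) are the 3 GC-rich members, and the other 5 lie between 43.6% and 48.5%. After a trend with GC content was subtracted, which moved the median of all genes by 0.16, the ratio in mesenchyme was 0.48 for Prrx2, 0.11 for Six2 and 0.07 for Msx1, so their direction turned, while Mab21l2 stayed at -0.94, Pax9 at -0.40, Prrx1 at -0.26 and Eya1 at -0.08. The median of the 8 was then -0.0029, and 4.81% of all genes were higher and 2.12% lower. The cause of the trend was not tested.

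In KO ectoderm all 8 genes had ratios above 0, as had 8941 of all 13935 genes tested. Of the 8 genes 5 lay beyond 1.5-fold upwards and none downwards, against 4.92% higher and 0.452% lower among all genes. Mab21l2 was at 17.7 TPM in KO and 3.24 in WT ectoderm (log2 ratio 2.14), the highest ratio of all genes. Prrx1 was at 40.4 and 9.22 TPM (2.02), with 3 genes higher. These places depend on the 1 added to each TPM. Without it the endothelial marker Cdh5 (6.04-fold) and the factor Lhx8 (5.91-fold) lay above Mab21l2 (5.47-fold). Such folds were read only for genes of the lists used here, and only at 1 TPM or more in WT ectoderm. The place of Mab21l2 among all genes without the 1 is therefore not known. With 5 added, Prrx1 (1.68) lay above Mab21l2 (1.46). Six2, at 42.3 and 17.6 TPM (1.22), Prrx2, at 21.9 and 9.42 TPM (1.13), and Eya1, at 28.9 and 15.1 TPM (0.89), were the other 3 beyond 1.5-fold.

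Msx1 and Pax9 were higher within 1.5-fold, Msx1 at 106 TPM in KO and 74.5 in WT ectoderm (0.50) and Pax9 at 14.5 and 11.5 TPM (0.31). Msx2 was nearly level, at 47.3 TPM in KO and 45.3 in WT ectoderm (0.06, and -0.01 after mitochondrially encoded genes were left out). The median of the 8 was 1.01, and that of all genes 0.05. Quantile normalization left 3.32% of all genes higher and 0.931% lower. After the GC trend was subtracted the same 5 genes were at least 1.5-fold higher, with ratios from 0.89 to 2.13.

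**Figure D3:**
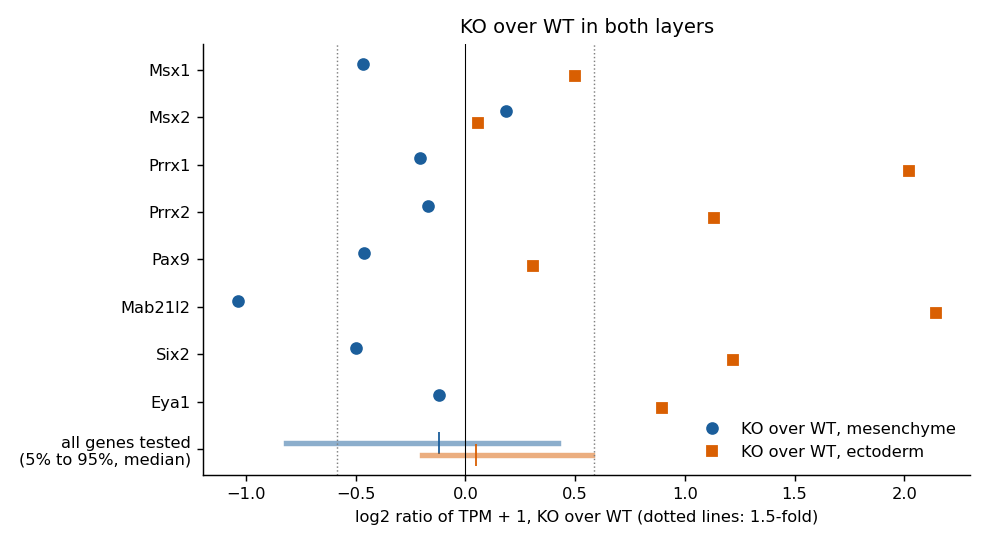
Log2 ratio of TPM plus 1, KO over WT (horizontal axis), for each gene in mesenchyme (circles) and ectoderm (squares); the bottom row gives the 5% to 95% range and the median of all genes tested, and dotted lines mark 1.5-fold. In ectoderm 5 of the 8 genes lie beyond 1.5-fold, and in mesenchyme Mab21l2 alone, at -1.03.

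Markers of mesenchyme, endothelium and muscle were also higher in KO ectoderm. In KO ectoderm 12 of the 20 mesenchyme markers passed 1.5-fold upwards and none downwards, against 4.92% and 0.452% of all genes. The summed level of the 20 was 1232 TPM in KO and 789 TPM in WT ectoderm. The 10 endothelial markers (Egfl7, Cdh5 and Pecam1 highest) summed to 56.1 TPM in KO and 20.9 TPM in WT ectoderm, the 10 muscle markers (Actc1, Tnnt1 and Myog highest) to 74.0 and 18.8 TPM, and no marker of either list was at 0 in either group. The 8 red blood cell markers (Hbb-y, Hba-a2 and Hba-a1 highest) had 1 member higher and none lower. The part of other cell types in the ectoderm values of the 8 genes was not tested. In tissue of mixed cells, a change in the number of cells of a type cannot be told apart from a change of RNA per cell.

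How much of the WT difference between the layers appeared in KO ectoderm can be expressed per gene: the increase between the ectoderm groups is divided by the excess of WT mesenchyme over WT ectoderm. Over the 14 mesenchyme markers with a WT layer difference of 5-fold or more, this gain ran from 6.51% to 15.5%, with a median of 11.1%. Mab21l2 (9.34%), Prrx1 (11.0%) and Pax9 (14.5%) lay within that range, and Prrx2 (6.36%) just under it. Msx1 (26.4%), Six2 (40.9%) and Eya1 (46.0%) lay above it. These 3 genes, like Pax9, were less than 5-fold higher in WT mesenchyme, so they would not have entered the marker set by that limit. Among 28 of the other mesenchymal factors past the 5-fold limit, the gain ran from 4.32% to 37.0%, with a median of 12.4%. Msx2 has no such value, since its level was higher in WT ectoderm.

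The median gain of the markers was also used as a correction, with 11.06% of each gene's WT mesenchyme TPM taken off its KO ectoderm TPM and results below 0 set to 0. Of the 8 genes 2 were then at least 1.5-fold higher, Six2 (33.7 TPM against 17.6 in WT ectoderm, log2 ratio 0.90) and Eya1 (23.9 against 15.1 TPM, 0.63). Msx1 was at 84.4 TPM (0.18), Msx2 at 45.4 TPM (0.0030) and Pax9 at 10.9 TPM (-0.07). Prrx1 was at 8.08 TPM against 9.22 in WT ectoderm (-0.17), Mab21l2 at 0.21 against 3.24 TPM, and Prrx2 at 0 against 9.42 TPM. The step removes RNA from KO ectoderm alone and moved the median of all genes by -0.18. Of all genes 1.45% were then higher and 1.2% lower. The share was taken of WT mesenchyme, and a share of KO mesenchyme was not tried. That would have removed less RNA of the 7 genes with lower levels in KO mesenchyme. For Mab21l2, at 76.8 TPM in KO and 158 in WT mesenchyme, the result depends most on this choice. When the remainder was divided by 1 minus the share, which restores the total and was chosen after the data were seen, the same 2 genes were higher (Six2 1.06, Eya1 0.79), Prrx1 was at -0.02, and 2.59% of all genes were higher and 0.731% lower.

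**Figure D4:**
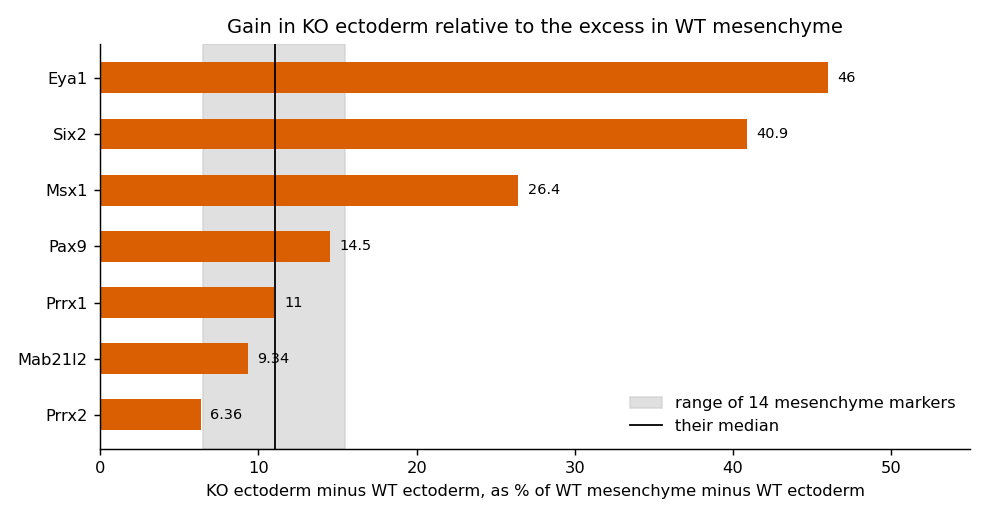
Gain in ectoderm (KO minus WT) as a percentage of the WT excess of mesenchyme over ectoderm, for the 7 genes with more RNA in mesenchyme; the grey band is the range of 14 mesenchyme markers and the line their median. Eya1 at 46.0%, Six2 at 40.9% and Msx1 at 26.4% lie right of the band that ends at 15.5%.

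The KO differences of the layers had opposite signs for 7 of the 8 genes, and their difference (mesenchyme minus ectoderm) was at least 2-fold for 5. The share of all genes with opposite signs was not counted. The whole table leaned this way, with 9023 of 14233 genes below 0 in mesenchyme and 8941 of 13935 above 0 in ectoderm. The difference was -3.18 for Mab21l2, -2.22 for Prrx1, -1.72 for Six2, -1.30 for Prrx2 and -1.01 for Eya1. Of all 14329 genes, 7.34% had a difference of this size in that direction and 0.593% in the other, and 3 genes lay below Mab21l2. Subtraction of the GC trend, which moved the median of all genes by 0.20, gave 2.23% and 1.21%. After the GC trend was subtracted 2 of the 8, Mab21l2 (-3.07) and Prrx1 (-2.28), were still past 2-fold. The opposite signs then held for 4 genes, Prrx1, Pax9, Mab21l2 and Eya1. After the mesenchyme share was subtracted they held for 3 genes, Msx1, Six2 and Eya1, and the difference was 0.77 for Mab21l2 and 3.21 for Prrx2. In KO ectoderm Mab21l2 was then at 0.21 TPM and Prrx2 at 0 TPM, so the size of both differences depends on the 1 added to each TPM. Both also depend on the use of WT rather than KO mesenchyme for the share. Eya1 was within 2-fold under 8 of 12 alternatives. The changes of filter and the summing of rows, which could not move its value, are among the rest. Msx2 had a difference of 0.13.

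Within the paralog pairs the balance varied with the layer. Msx2 was at 13.8% of Msx1 in KO mesenchyme and 8.70% in WT mesenchyme, and at 44.7% in KO ectoderm and 60.8% in WT ectoderm. The summed Msx level was 158 TPM in KO mesenchyme, 209.5 in WT mesenchyme, 153 in KO ectoderm and 119.8 in WT ectoderm, so the layers differed less in total Msx RNA than in either gene. Prrx2 was at 71.85% of Prrx1 in KO mesenchyme and 70.07% in WT mesenchyme, at 54.1% in KO ectoderm and at 102% in WT ectoderm. The Prrx genes together were at 436 TPM in KO mesenchyme, 498 in WT mesenchyme, 62.3 in KO ectoderm and 18.6 in WT ectoderm.

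Across the 4 groups the 8 genes fell into patterns by the Euclidean distance between centred log2 profiles (TPM plus 1, 4 values per gene), given as a description. Msx1 and Pax9 were the closest pair, at 0.19, followed by Msx1 with Eya1 (0.40), Six2 with Eya1 (0.42), Pax9 with Eya1 (0.48) and Prrx1 with Mab21l2 (0.60). Prrx1 and Prrx2 were 0.63 apart. Msx1 and Msx2 were 2.26 apart, and Msx2 was 5.25 from Mab21l2, the largest distance of the 28 pairs.

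The genes of the whole table nearest to each profile, at a mean of 5 TPM or more, were named by the same measure. Nearest to Prrx1 were the muscle actin Actc1 (0.21), the endothelial sialomucin Emcn (0.26) and the Pdgf receptor Pdgfra (0.27). Nearest to Mab21l2 were the endothelial cadherin Cdh5 (0.32), the secreted Wnt inhibitor Frzb (0.40) and the collagen Col3a1 (0.43), and nearest to Prrx2 were Sned1 (0.15), the collagen receptor Ddr2 and the homeodomain factor Alx1 (both 0.30). Six2 was nearest to the cartilage collagen Col9a3 (0.12), Lmcd1 and Mcam, and Eya1 to the Gdnf receptor Gfra1 (0.09), Mfng and Selenom. Near to Msx1 were the cyclin Ccnd1 and Cnn2 (both 0.07), and Pax9 was nearest to Rab36, Adamtsl1 and Cmtm7 (all 0.06), and Msx2 to Kif21a (0.04), Tspan12 and Pdk1.

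Close relatives of the 8 genes were set beside them from a list of 17 paralogs. Of the 12 tested in mesenchyme 5 were at least 1.5-fold lower in KO and none higher (median -0.44), against 13.4% and 2.33% of all genes. After the GC trend was subtracted 1 was lower and 1 higher, against 2.12% and 4.81%. Pax1, the closest relative of Pax9, was at 15.6 TPM in KO and 35.9 in WT mesenchyme (-1.15). Pax7 (7.38 and 14.1 TPM), Eya2 (17.1 and 28.7 TPM) and Six5 (23.1 and 37.9 TPM) followed. In ectoderm 9 of 14 were at least 1.5-fold higher in KO and none lower (median 0.79), against 4.92% and 0.452% of all genes. After the mesenchyme share was subtracted 6 were higher, against 1.45% of all genes.

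Among these in ectoderm, Pax7 was at 9.08 TPM in KO and 2.95 in WT ectoderm (1.35), Six3 at 17.9 and 6.90 TPM (1.26) and Eya2 at 105.64 and 43.97 TPM (1.25). Six3 and Eya2, which are also in the list of nasal ectoderm markers, are genes of nasal and olfactory ectoderm with lower levels in mesenchyme, 0.43 and 28.7 TPM in WT. The nasal ectoderm markers were headed in level by Dlx3, Sox2 and Eya2. Of 10 tested, 8 (all but Dlx3 and Sox2) were past 1.5-fold higher in KO ectoderm and none lower, against 4.92% and 0.452% of all genes. The summed level of the 11 listed was 312 TPM in KO and 185 TPM in WT ectoderm. One of the 8, Ebf2, had more RNA in WT mesenchyme (17.65 TPM) than in WT ectoderm (2.16 TPM). After the mesenchyme share was subtracted 8 of the 10 were still higher (median 1.17), against 1.45% of all genes. These markers moved with Six2 and Eya1 in ectoderm, and their part in the values of Six2 and Eya1 was not tested. The closest relative of Mab21l2, Mab21l1, was at 26.4 TPM in KO and 37.5 in WT mesenchyme and at 5.09 TPM in KO and 1.62 in WT ectoderm.

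Cofactors of homeodomain proteins had medians nearer to 0. Of 12 cofactor genes, 2 were at least 1.5-fold lower in KO mesenchyme and none higher (median -0.26). This is near the share of all genes, 13.4% lower and 2.33% higher. Both are corepressors of the Groucho family: Tle3 was at 56.7 TPM in KO and 104 in WT, and Tle2 at 62.65 and 100.25 TPM. Neither was past 1.5-fold after the GC trend was subtracted. In ectoderm 1 of 12 was higher, against 4.92% of all genes. It was Tle2, at 29.95 TPM in KO and 17.6 in WT (0.73), and the median was 0.16. None of the 12 was past 1.5-fold in ectoderm after the GC trend or the mesenchyme share was subtracted.

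Signals that act above and below these factors were read from a list of 31 genes of the Bmp, Fgf, Shh and Wnt pathways and their targets. In mesenchyme 8 of 28 tested were at least 1.5-fold lower in KO and 1 higher (median -0.44), against 13.4% and 2.33% of all genes. After the GC trend was subtracted 4 were lower and 1 higher, against 2.12% and 4.81%. Lef1, a nuclear effector of Wnt signals, was at 39.25 TPM in KO and 82.9 in WT mesenchyme, the palate growth factor Tgfb3 at 13.6 and 28.4 TPM, the matrix protein Tnc at 29.3 and 59.4 TPM and the hedgehog effector Gli1 at 38.3 and 72.3 TPM. Bmp4, which Msx1 and Pax9 maintain in tooth mesenchyme, was at 44.2 TPM in KO and 60.1 in WT mesenchyme (-0.43), within 1.5-fold.

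In ectoderm 6 of 30 genes of this list were at least 1.5-fold higher in KO and 1, Shh, lower, with a median of 0.08. Among all genes 4.92% were higher and 0.452% lower. After the mesenchyme share was subtracted 0 were higher and 2 lower, against 1.45% and 1.2% of all genes. With the remainder rescaled the counts were 1 and 0, against 2.59% and 0.731%. Tnc was at 8.57 TPM in KO and 3.15 in WT ectoderm, Tgfb3 at 7.68 and 4.09 TPM, Wnt5a at 57.3 and 33.7 TPM and the Wnt antagonist Dkk2 at 4.30 and 2.16 TPM. Bmp4 was at 29.6 TPM in KO and 20.3 in WT ectoderm (0.52), again within 1.5-fold.

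Of the 36 other factors of facial mesenchyme, 16 were at least 1.5-fold lower in KO mesenchyme and none higher (median -0.49), against 13.4% and 2.33% of all genes. After the GC trend was subtracted 6 were lower and 1 higher, against 2.12% and 4.81%. Pitx1, a factor of the lower jaw, was at 11.9 TPM in KO and 31.05 in WT mesenchyme, the palate factor Osr2 at 25.5 and 59.8 TPM and the hedgehog target Foxf1 at 8.37 and 18.2 TPM. In ectoderm 27 of 35 were higher in KO and none lower, against 4.92% and 0.452% of all genes. Their median was 1.04, next to 1.01 for the 8 genes. Hand2 was at 6.84 TPM in KO and 0.79 in WT ectoderm, Lhx8 at 7.09 and 1.20 TPM, Osr1 at 10.4 and 2.20 TPM and Lhx6 at 5.59 and 0.97 TPM. After the mesenchyme share was subtracted 7 of 29 were higher and 4 lower, against 1.45% and 1.2% of all genes. The number tested fell from 35 to 29 because factors that then averaged under 1 TPM were left out. Factors brought that low by the subtraction are therefore missing from the count.

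**Figure D5:**
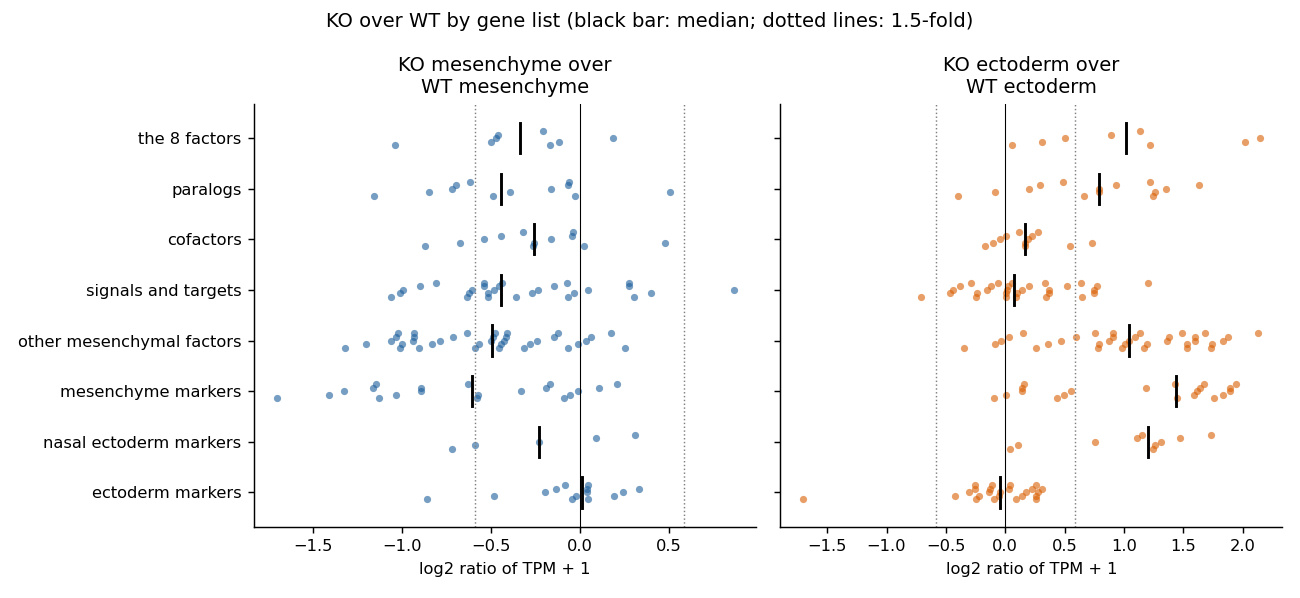
Log2 ratio of TPM plus 1, KO over WT (horizontal axis), in mesenchyme (left) and ectoderm (right) for the 8 genes and 7 gene lists; each point is a gene, black bars are medians and dotted lines mark 1.5-fold. In ectoderm the 8 genes (median 1.01) sit near the other mesenchymal factors (1.04), while the ectoderm markers have a median of -0.05.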

How the data were processed

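Per the submitters' processing notes, STAR 2.5.2a, kallisto 0.43.0 and the genome build mm10 were used, with no role given. The annotation, and how 4 libraries became 1 value, is not given in the sources used here. The authors deposited TPM per gene symbol, with 1 column per group, and the sequencing depth is unknown. Where a symbol had several rows (103 symbols, none of the 8 genes) the row with the largest total was used. Log2 ratios were computed between TPM plus 1 for genes that averaged 1 TPM or more, and counted at 1.5-fold (KO over WT) or 2-fold (layers). A planned limma model needs values per library and was not run. All 8 genes passed the filter in every comparison.

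The members and gene lists were chosen with earlier results of these data known. Genes outside the 8 were named by rule: from the 4 functional lists, up to 4 of the largest ratios per layer; from marker lists, the 3 highest levels; and the 3 nearest profiles of each gene. Some genes that this rule names are not reported here. Mab21l1, Bmp4, Shh, Lrba and Slc25a21 were named besides, after their values were seen. Alternatives were other pseudocounts (0.1 and 5), filters (none and 5 TPM), scalings, lowess trends (fraction 0.3) on GC content or length of the longest GENCODE M21 transcript, and subtraction of a mesenchyme share. The last was also run with the remainder divided by 1 minus the share, an alternative added after seeing the data. Python 3.11.15, pandas 2.3.3 and statsmodels 0.14.6 were used. The fold counts, the subtraction of a trend and the gain measure were tested on simulated data. The subtraction of the mesenchyme share and the other steps were not.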

Additional observations from a re-analysis of the deposited data

Results flagged for a closer look

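The KO difference in mesenchyme and the KO difference in ectoderm had opposite signs and lay at least 2-fold apart for 5 genes. As log2 ratio in mesenchyme minus log2 ratio in ectoderm, the values were -3.18 for Mab21l2, -2.22 for Prrx1, -1.72 for Six2, -1.30 for Prrx2 and -1.01 for Eya1. Of all 14329 genes, 7.34% lay at least 2-fold apart in that direction, whatever their signs. Each value rests on 1 deposited value per group, and the difference between the layers was not tested. Prrx2 and Six2 lost the opposite signs after the GC trend was subtracted, and Eya1 after centring, quantile normalization or subtraction of the length trend. After subtraction of the mesenchyme share the value was 0.77 for Mab21l2 and 3.21 for Prrx2, and -0.03 for Prrx1. In KO ectoderm Mab21l2 was then at 0.21 TPM and Prrx2 at 0 TPM, so the size of their values depends on the 1 added to each TPM. These values also depend on the use of WT rather than KO mesenchyme for the share.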

How the results depend on the processing

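Of 448 ratios of the 8 genes recomputed under 12 alternatives, 413 stayed on the same side of the threshold and within 1.5-fold of the reported value, 25 moved and 10 reversed. The changes of filter and the summing of rows could not move these ratios, since all 8 genes passed each filter and have 1 row. Their ratios are part of the 413 by design and say nothing of stability. Subtraction of 11.06% of WT mesenchyme from KO ectoderm gave 2 genes higher and 2 lower in ectoderm in place of 5 and 0, with Prrx1 at -0.17, Prrx2 at -3.38 and Mab21l2 at -1.81 (-0.02, -3.38 and -1.78 with the remainder rescaled, with the same counts). In the difference between the KO effects it gave 1 gene higher and 1 lower in place of 0 and 5, with Prrx2 at 3.21 and Mab21l2 at 0.77 (3.21 and 0.74 rescaled). The size of these Prrx2 and Mab21l2 values depends on the 1 added to each TPM, since the subtraction left them at 0 and 0.21 TPM in KO ectoderm. These values also depend on the use of WT rather than KO mesenchyme for the share. Subtraction of the GC trend gave 2 lower in place of 5 in that difference. Eya1 was within 2-fold in that difference under 8 alternatives (-1.05 to -0.75 over all 12). In mesenchyme, Eya1 was above 0 after centring, quantile normalization (0.08) or subtraction of the length trend (0.09). Over all genes, 332 were higher and 1902 lower in KO mesenchyme, from 119 to 679 and from 299 to 2272 under the alternatives, with 639 and 968 after quantile normalization. In KO ectoderm 686 were higher and 63 lower, from 199 to 983 and from 29 to 165. Between WT layers 1718 and 980 were counted, from 909 to 2037 and from 573 to 1133, and between KO layers 992 and 1305, from 411 to 1483 and from 744 to 1532. For the difference between the KO effects 85 and 1052 were counted, from 28 to 179 and from 316 to 1574. The causes were not tested. No paired analysis was possible because the table gives 1 value per group, and for the same reason no library could be left out and no limit from depth can be given.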

Other observations

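Neuron markers, which none of the 8 genes marks, were higher in KO mesenchyme. There 6 of the 10 markers passed 1.5-fold upwards and none downwards, against 2.33% and 13.4% of all genes. After the GC trend was subtracted the counts were 8 and 0, against 4.81% and 2.12%. The median log2 ratio of the markers was 0.64, and their summed level was 309 TPM in KO and 197 TPM in WT mesenchyme. Tubb3, a neuronal tubulin, was at 110.2 TPM in KO and 81.0 in WT mesenchyme, Stmn2 at 77.0 and 44.8 TPM and Nefm, a neurofilament, at 28.3 and 20.04 TPM, and of these 3 Stmn2 was past 1.5-fold. In ectoderm 6 of 9 tested were higher and none lower, against 4.92% and 0.452% of all genes. The higher count was 1 of 9 after quantile normalization (3.32% of all genes) or with a pseudocount of 5 (1.72%). It was 4 of 9 after centring (4.3%). After the mesenchyme share was subtracted 0 of the 7 still tested were higher (1.45% of all genes), and 4 of 7 with the remainder rescaled (2.59%).

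Id1, a direct target of Bmp signals, was the 1 gene of the signal list that was at least 1.5-fold higher in KO mesenchyme, at 153 TPM in KO and 83.6 in WT mesenchyme (0.86), while Id2 (388 and 294 TPM) and Id3 (223.55 and 228.5 TPM) were within 1.5-fold. In ectoderm Id3 was at 327 TPM in KO and 210 TPM in WT (209.8, log2 ratio 0.64), past 1.5-fold, and Id1 at 200.2 and 155 TPM, within it. These genes were singled out after their values were seen.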
